A study of Mus musculus with 48 samples.

Results

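Transcripts of 7 sterol genes were followed across 4 dose groups of dichloroacetic acid (DCA), a by-product of water chlorination, in mouse liver. The genes, Hmgcs1, Idi1, Fdft1, Sqle, Lss, Cyp51 and Insig1, were chosen by symbol, and all 7 were listed both among the 11275 genes of the frozen (FROZ) table and among the 6673 genes of the formalin-fixed paraffin-embedded (FFPE) table. All but Insig1 encode enzymes of cholesterol synthesis, and Insig1 encodes a regulator of it. None encodes a lipoprotein receptor, so lipoprotein uptake is described from a separate list of genes.

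The mice were 24 male B6C3F1 animals, 4 weeks old, that drank water with DCA for 6 days at 1.0 g/L (a dose of 198 mg/kg-d), 2.0 g/L (313 mg/kg-d) or 3.5 g/L (427 mg/kg-d), or water without DCA (vehicle controls), with 6 mice per dose. Every mouse was of the same hybrid strain, sex and age, and no group carried a transgene or a second agent. Each mouse gave 1 FROZ and 1 FFPE library of archived liver tissue, for 48 TempO-Seq libraries. The paper reports that both tissues had been stored for decades. It also reports low integrity values for RNA isolated from FROZ as well as from FFPE tissue. In this assay pairs of detector oligos bind a transcript side by side, are ligated and amplified, and are counted by sequencing, so a value is the abundance of a probe and not of a whole transcript. FROZ libraries were made from isolated RNA of mixed liver lobes and FFPE libraries from tissue lysate. By the paper, both tissues took in the right medial lobe, with the left lateral caudate for FROZ and the left lateral for FFPE.

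Cholesterol is built from acetyl-CoA through mevalonate, isoprenoid and squalene intermediates to lanosterol, which is then trimmed to cholesterol. In the liver the pathway is governed by sterol regulatory element-binding proteins (SREBPs), transcription factors that stay in the endoplasmic reticulum while sterols are plentiful and are cut and released to the nucleus when sterols run low. INSIG proteins hold the SREBP escort SCAP in the endoplasmic reticulum, and cells also gain cholesterol by taking up lipoproteins from plasma.

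The FROZ libraries held 6.69 to 9.84 M reads on listed genes (M, 1000000 reads) and 13 to 61 genes at 0. The FFPE libraries held 1.83 to 6.01 M reads and 65 to 1589 genes at 0, with more than 1000 genes at 0 in 4 libraries (animals 49, 52 and 54 at 198 mg/kg-d and animal 73 at 313 mg/kg-d). Defining hepatocyte markers were present in both tables, 8 of 8 in FROZ and 7 of 8 in FFPE. None of the 7 sterol genes was among the probes that the study attenuated. Levels below are log2(CPM + 1), where CPM is counts per M reads on listed genes, and fold changes are differences on that scale, which understates changes of low genes. A change was called at a false discovery rate (FDR, Benjamini-Hochberg over all genes of a table, limma) under 0.05, and a differentially expressed gene (DEG) also needed a fold change above 2.

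At 427 mg/kg-d, 4 of the 7 genes fell in FROZ liver. These were Sqle, Idi1, Cyp51 and Fdft1, which act between isoprenoid formation and lanosterol demethylation, and they fell by 27.1 to 48.9%. Lss, which acts between Sqle and Cyp51, was not called. Among all genes, 30.1% were called at this dose and 7.33% were called lower. The median change of the 7 genes was -0.46, against 0.10 for all 11275 genes. None passed the fold threshold of a DEG, which 3.5% of all genes passed. In bulk tissue, fewer cells of a type and less RNA per cell cannot be told apart.

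Sqle encodes squalene epoxidase, which adds oxygen to squalene and is a rate-limiting step after mevalonate. Its FROZ level was 6.02, 6.45 and 6.64 (lowest, median and highest of 6) in vehicle controls and 4.93, 5.44 and 5.87 at 427 mg/kg-d. Every mouse at 427 mg/kg-d lay below every control. The change was -0.97 ± 0.18 (SE, FDR = 0.000116), or 1.96-fold lower.

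Cyp51 encodes the cytochrome P450 that demethylates lanosterol. Its controls had levels of 4.74, 5.01 and 5.35 and the mice at 427 mg/kg-d 4.17, 4.34 and 4.65, again without overlap. The change was -0.65 ± 0.14 (SE, FDR = 0.00105). Sqle and Cyp51 were thus 2 of 7 genes with all 6 treated mice below all 6 controls, an arrangement found in 3.27% of all FROZ genes.

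Idi1, the isomerase that interconverts the basic isoprenoid units, ranged from 8.15 to 9.06 with a median of 8.67 in controls and from 7.45 to 8.24 with a median of 7.93 at 427 mg/kg-d. The groups overlapped, with 5 of 6 treated mice below the lowest control, and the change was -0.71 ± 0.17 (SE, FDR = 0.00244). Fdft1, squalene synthase, had control levels of 7.92, 8.16 and 8.50 and treated levels of 7.50, 7.65 and 8.21. Animal 100 was the highest of the 427 mg/kg-d group for Fdft1, and the other 5 mice lay below the lowest control. The change of Fdft1 was -0.46 ± 0.13 (SE, FDR = 0.00831).

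Hmgcs1, Lss and Insig1 were not called at 427 mg/kg-d. Hmgcs1 encodes the cytosolic synthase that makes HMG-CoA, a precursor of mevalonate. Its 6 control levels formed a low and a high trio, 7.26, 7.28 and 7.34 against 8.04, 8.14 and 8.26, and the treated mice lay between 6.94 and 7.56. Its change of -0.46 had the size of that of Fdft1 but a larger error (SE 0.19, FDR = 0.0692). It was called when libraries were scaled by the median ratio (-0.60, FDR = 0.0263). It was also called without animal 3, 5 or 6, which are the low trio of controls. With each of 12 animals left out in turn the change ran from -0.55 to -0.35, with a highest FDR of 0.182. Lss encodes lanosterol synthase, which closes the sterol rings, and had a change of -0.16 ± 0.13 (SE, 95% CI -0.43 to 0.11). Insig1 had a change of 0.08 ± 0.19 (SE, 95% CI -0.31 to 0.48), which turned to -0.06 under median-ratio scaling.

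**Figure D1:**
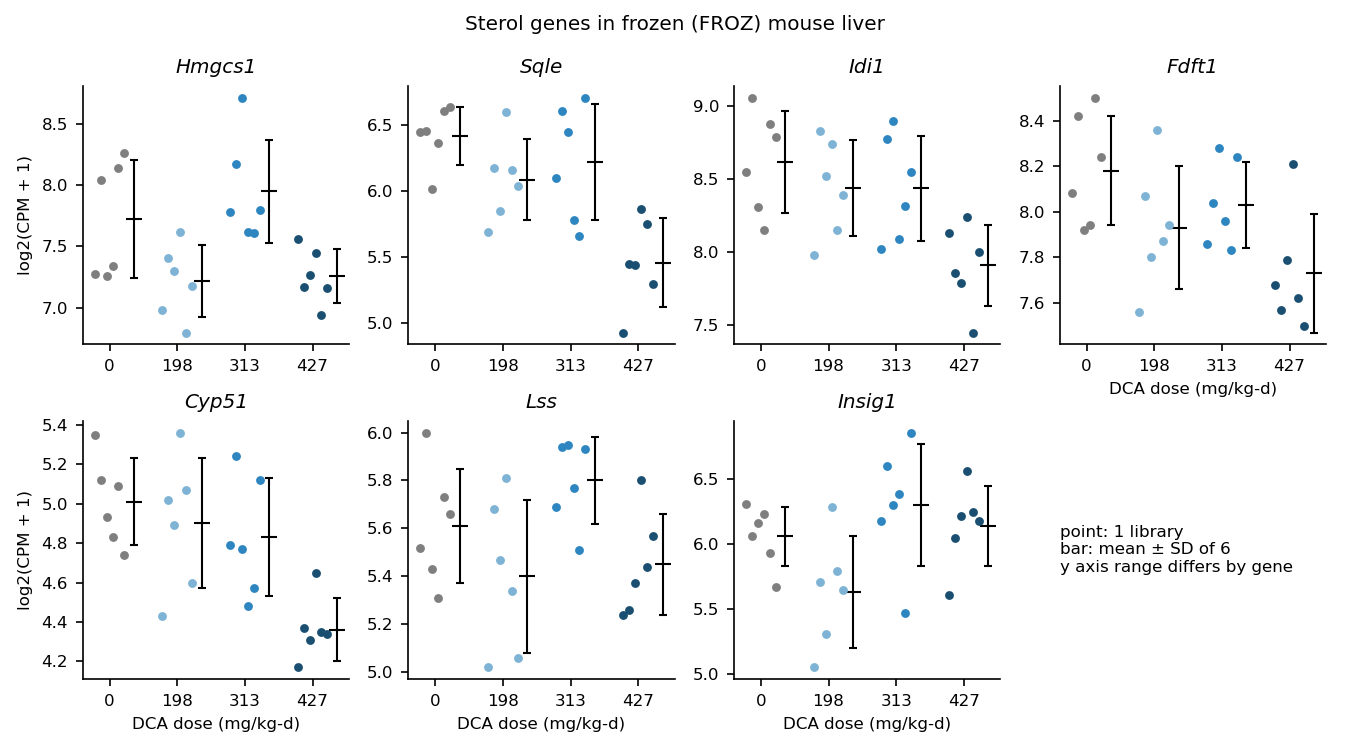
Level of each sterol gene, log2(CPM + 1), in the 24 FROZ libraries by DCA dose (mg/kg-d), with 1 point per library and the mean ± SD of 6 beside each group. For Sqle and Cyp51 all points at 427 mg/kg-d sit below all points at 0 mg/kg-d, and for Hmgcs1, Lss and Insig1 the mean is higher at 313 than at 198 mg/kg-d while the points overlap.

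The 4 calls at 427 mg/kg-d were kept under each of the 6 alternative settings and with each of the 12 animals left out in turn, with a highest FDR of 0.0268 for Fdft1 and 0.000491 for Sqle among the latter. Cell type markers were described in the same comparison, where 7.33% of all genes were called lower and 22.7% higher. The summed level of the 8 hepatocyte markers was 15.29 to 15.47 in controls and 15.02 to 15.19 at 427 mg/kg-d, although only 1 of the 8 was called lower (Fgb) and 1 higher (Hnf4a). Of the Kupffer cell markers, 3 of the 5 listed were called lower (Cd5l, Adgre1 and Csf1r), with a summed level of 6.10 to 6.72 in controls and 5.81 to 6.25 at 427 mg/kg-d. Of the endothelial and the stellate cell markers, 1 of 6 (Stab2) and 1 of 5 (Dcn) were called lower, with summed levels of 6.98 to 7.18 against 6.63 to 6.92 and of 7.77 to 8.98 against 7.59 to 8.47. None of the 3 listed cholangiocyte or 3 listed lymphocyte markers was called, with summed levels of 5.08 to 5.52 against 4.95 to 5.58 and of 5.01 to 5.53 against 4.57 to 6.24. The part of these marker values in the sterol results was not tested.

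The lower doses showed no called change from vehicle in FROZ liver. At 198 mg/kg-d the fold changes of all 7 genes were below 0, from -0.50 for Hmgcs1 to -0.11 for Cyp51, with a median of -0.25 against 0.07 over all genes. None was called by limma, 2 of the 7 (Hmgcs1 and Insig1) had an unadjusted p under 0.05, and of all genes 1.56% were called and 17.1% had an unadjusted p under 0.05. At 313 mg/kg-d, where 26.7% of all genes were called, again none of the 7 was, and none had an unadjusted p under 0.05, against 37.3% of all genes. Hmgcs1, Lss and Insig1 then had values of 0.23, 0.19 and 0.24, and the other 4 values from -0.21 to -0.15. All dose comparisons with vehicle share the same 6 controls.

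Neighbouring doses were also compared. From 198 to 313 mg/kg-d, Hmgcs1 rose by 0.73 ± 0.19 (SE, FDR = 0.0116), Insig1 by 0.66 ± 0.19 (SE, FDR = 0.0243) and Lss by 0.40 ± 0.13 (SE, FDR = 0.0471), while 8.05% of all genes were called higher. Hmgcs1 levels were 6.80, 7.24 and 7.62 (lowest, median and highest) at 198 mg/kg-d and 7.61, 7.79 and 8.71 at 313 mg/kg-d, so 4 of 6 mice at the higher dose lay above all 6 at the lower one. Insig1 levels were 5.05, 5.68 and 6.29 against 5.47, 6.34 and 6.86, also with 4 of 6 above, and Lss levels were 5.02, 5.41 and 5.81 against 5.51, 5.85 and 5.95, with 3 of 6 above. The other 4 genes had values from -0.07 to 0.13. The Lss call was lost under 4 of 6 alternative settings and on leaving out any of 9 animals, and the Insig1 call with array weights, with only these 2 groups in the fit, or without animal 49, 51, 74 or 78. Array weights or a fit of only these 2 groups left Hmgcs1 as the 1 called gene.

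From 313 to 427 mg/kg-d all 7 fold changes were below 0, with a median of -0.46 against 0.00 over all genes. Sqle fell by 0.76 ± 0.18 (SE, FDR = 0.0150) and Hmgcs1 by 0.69 ± 0.19 (SE, FDR = 0.0442), where 1.34% of all genes were called lower. For Hmgcs1 every mouse at 427 mg/kg-d lay below every mouse at 313 mg/kg-d, an arrangement found in 0.798% of all FROZ genes. Idi1 had -0.53 (FDR = 0.0914), Cyp51 -0.46 (FDR = 0.0723), Lss -0.35, Fdft1 -0.31 and Insig1 -0.15. Hmgcs1 lost its call when any of 8 animals (74, 75, 78 and 98 to 102) was left out, under median-ratio scaling, and without the trend in the variance prior. Over the 4 doses the slope per 100 mg/kg-d was called lower for Sqle (-0.19 ± 0.05, SE), Idi1 (-0.14 ± 0.04), Cyp51 (-0.13 ± 0.03) and Fdft1 (-0.09 ± 0.03), with 7.73% of all genes called lower. Hmgcs1, Lss and Insig1, whose levels went down and up between doses, had slopes of -0.05, -0.01 and 0.05.

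The promoters of the 3 genes called higher at 313 than at 198 mg/kg-d are shown so that their motif letters can be seen side by side. The calls of Lss and Insig1 were not stable. Among the 3 promoters, only that of Hmgcs1 held TCACNCCAC, the only form of the sterol regulatory element that was searched. Other forms were not searched, so the element cannot be called absent from the promoters of Lss and Insig1. The matches were not tested against the calls. The sequences are from RefSeq on GRCm38.p6, 5′ to 3′ on the strand of the gene, stop before the first annotated transcript start, and hold no annotated exon. Capitals mark matches on either strand to TCACNCCAC (a sterol regulatory element), CCAAT (the NF-Y box), GGGCGG (the Sp1 box) and CACGTG (an E-box), and no matches overlapped.
Hmgcs1, chr13:119690101-119690350, plus strand: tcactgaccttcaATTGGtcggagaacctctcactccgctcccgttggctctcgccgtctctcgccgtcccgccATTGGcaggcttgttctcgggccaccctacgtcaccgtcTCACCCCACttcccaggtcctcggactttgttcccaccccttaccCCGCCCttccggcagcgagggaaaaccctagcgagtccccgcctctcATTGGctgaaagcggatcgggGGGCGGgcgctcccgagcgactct
Lss, chr10:76531355-76531587, plus strand: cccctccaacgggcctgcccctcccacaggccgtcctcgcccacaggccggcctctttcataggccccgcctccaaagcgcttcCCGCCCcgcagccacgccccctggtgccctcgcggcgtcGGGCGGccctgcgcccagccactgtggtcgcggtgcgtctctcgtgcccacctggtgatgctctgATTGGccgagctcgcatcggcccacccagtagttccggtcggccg
Insig1, chr5:28071162-28071362, plus strand: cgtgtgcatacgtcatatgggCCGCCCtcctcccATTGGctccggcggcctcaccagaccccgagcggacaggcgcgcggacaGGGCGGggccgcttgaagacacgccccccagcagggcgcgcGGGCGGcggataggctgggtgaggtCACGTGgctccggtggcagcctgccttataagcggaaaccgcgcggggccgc

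RefSeq promoter windows were matched for 5 of the 7 genes, all but Sqle and Fdft1. Matches were counted in the 250 bases before the RefSeq start, which can run past the first annotated start where the printed sequences stop. In these windows TCACNCCAC was found in 1 of 5 (Hmgcs1) and in 1.05% of all 32851 promoter windows. CCAAT was found in 5 of 5 and in 33.8% of all windows, GGGCGG in 5 of 5 and in 32.7%, and CACGTG in 1 of 5 (Insig1) and in 6.02%. Trimmed like the printed sequences, the Idi1 promoter held none of these matches and the Cyp51 promoter no CCAAT. These matches are descriptions of the letters in the windows and were not tested against expression. By GENCODE the 7 genes lie on GRCm38 at chr13:119690379-119708260 (Hmgcs1), chr13:8885501-8892451 (Idi1), chr14:63145150-63179578 (Fdft1), chr15:59315077-59331192 (Sqle), chr10:76531588-76557138 (Lss), chr5:4081145-4104746 (Cyp51) and chr5:28071363-28078662 (Insig1).

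The remaining enzymes of the pathway were mixed. At 427 mg/kg-d 22.7% of all FROZ genes were called higher and 7.33% lower, and in 11.4% all 6 mice lay above all 6 controls. Of 17 other synthesis genes described in FROZ, 4 fell and 2 rose at 427 mg/kg-d, with a median of -0.14. Mvk, mevalonate kinase, fell by 1.07 ± 0.14 (SE, FDR = 9.13e-07), the only one of the 17 past the fold threshold of a DEG, from 4.14, 4.52 and 4.82 (lowest, median and highest) in controls to 3.19, 3.41 and 3.77, without overlap. Fdps, which makes the farnesyl diphosphate that Fdft1 joins into squalene, fell by 0.88 ± 0.13 (SE, FDR = 1.19e-05), from 7.67, 8.25 and 8.65 to 7.11, 7.28 and 7.59. Msmo1 and Nsdhl, which remove methyl groups after Cyp51, fell by 0.60 ± 0.16 (SE, FDR = 0.00509) and 0.67 ± 0.23 (SE, FDR = 0.0255), and the Nsdhl call was lost without animal 4, 6, 7 or 101. Por, the reductase that supplies electrons to Cyp51, Sqle and many other microsomal enzymes, rose by 0.68 ± 0.18 (SE, FDR = 0.00418). Sc5d, a desaturase late in the pathway, rose by 0.41 ± 0.13 (SE, FDR = 0.0199), a call lost under median-ratio scaling (0.27, FDR = 0.137) and without animal 3, 8, 99 or 101. Under median-ratio scaling, which moved the median of all genes from 0.10 to -0.01, the 17 genes split into 9 lower and 1 higher.

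Of 9 described genes of SREBP processing, 4 were called higher at 427 mg/kg-d and none lower, where 22.7% of all genes were called higher and 7.33% lower. Under median-ratio scaling 2 of the 9 were called higher and none lower. Srebf1, which encodes SREBP-1 and mainly serves fatty acid synthesis, rose by 1.73 ± 0.27 (SE, FDR = 1.89e-05), from 0.74, 1.90 and 2.54 (lowest, median and highest) in controls to 3.04, 3.54 and 4.10, without overlap. Rnf145, a ubiquitin ligase of the endoplasmic reticulum, rose by 1.53 ± 0.19 (SE, FDR = 4.32e-07), from 1.77, 2.52 and 2.74 to 3.23, 4.03 and 4.19. Insig2, the relative of Insig1, rose by 0.49 ± 0.15 (SE, FDR = 0.0160), and Mbtps2, a protease that releases SREBPs, by 0.25 ± 0.08 (SE, FDR = 0.0151), but both calls were lost under median-ratio scaling (0.35, FDR = 0.0791 and 0.11, FDR = 0.353), and that of Insig2 also without animal 8 (FDR = 0.0538). Srebf2, which encodes the SREBP that mainly serves cholesterol synthesis, lay near the floor of the assay, at 0.27 to 0.54 in controls and 0.00 to 0.85 at 427 mg/kg-d, where 3 reads correspond to 0.38 to 0.53. The escort Scap had a value of 0.30 (FDR = 0.0630) and was called under 3 of 6 alternative settings and without animal 7 or 98. The protease Mbtps1 had a value of -0.08, Ubxn8 0.14 and Tmed2 0.01, none of them called, and Tmed2 turned below 0 under median-ratio scaling.

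Of 16 described genes of lipoprotein uptake and cholesterol trafficking, 2 were called higher and 3 lower at 427 mg/kg-d. Among all genes 22.7% were called higher and 7.33% lower. Under median-ratio scaling 2 of the 16 were called higher and 4 lower. Vldlr, the receptor for very low density lipoprotein, rose by 1.81 ± 0.31 (SE, FDR = 4.63e-05) from a low level, with 0.15, 0.39 and 2.51 (lowest, median and highest) in controls and 1.87, 2.68 and 3.36 at 427 mg/kg-d, so the groups overlapped. Npc1, which exports cholesterol from lysosomes, rose by 0.59 ± 0.13 (SE, FDR = 0.00127), from 3.91, 4.34 and 4.62 to 4.65, 4.84 and 5.05, without overlap. Scarb1, the HDL receptor, fell by 0.53 ± 0.13 (SE, FDR = 0.00196). Lrp1, a large receptor that takes up lipoprotein remnants, fell by 0.43 ± 0.07 (SE, FDR = 2.23e-05), from 8.91, 9.02 and 9.23 to 8.40, 8.62 and 8.72, without overlap. Tmem97 fell by 0.38 ± 0.13 (SE, FDR = 0.0313), a call lost with only these 2 groups in the fit (FDR = 0.0581) and without animal 6, 7, 8, 97, 99, 100 or 102. At 313 mg/kg-d 2 synthesis genes were called higher and 3 lower, 4 SREBP genes higher and none lower, and 3 uptake and trafficking genes lower and none higher, where 20.5% of all genes were called higher and 6.15% lower. At 198 mg/kg-d the only call in these lists was Lrp1 (-0.47 ± 0.07, SE, FDR = 0.000569).

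**Figure D2:**
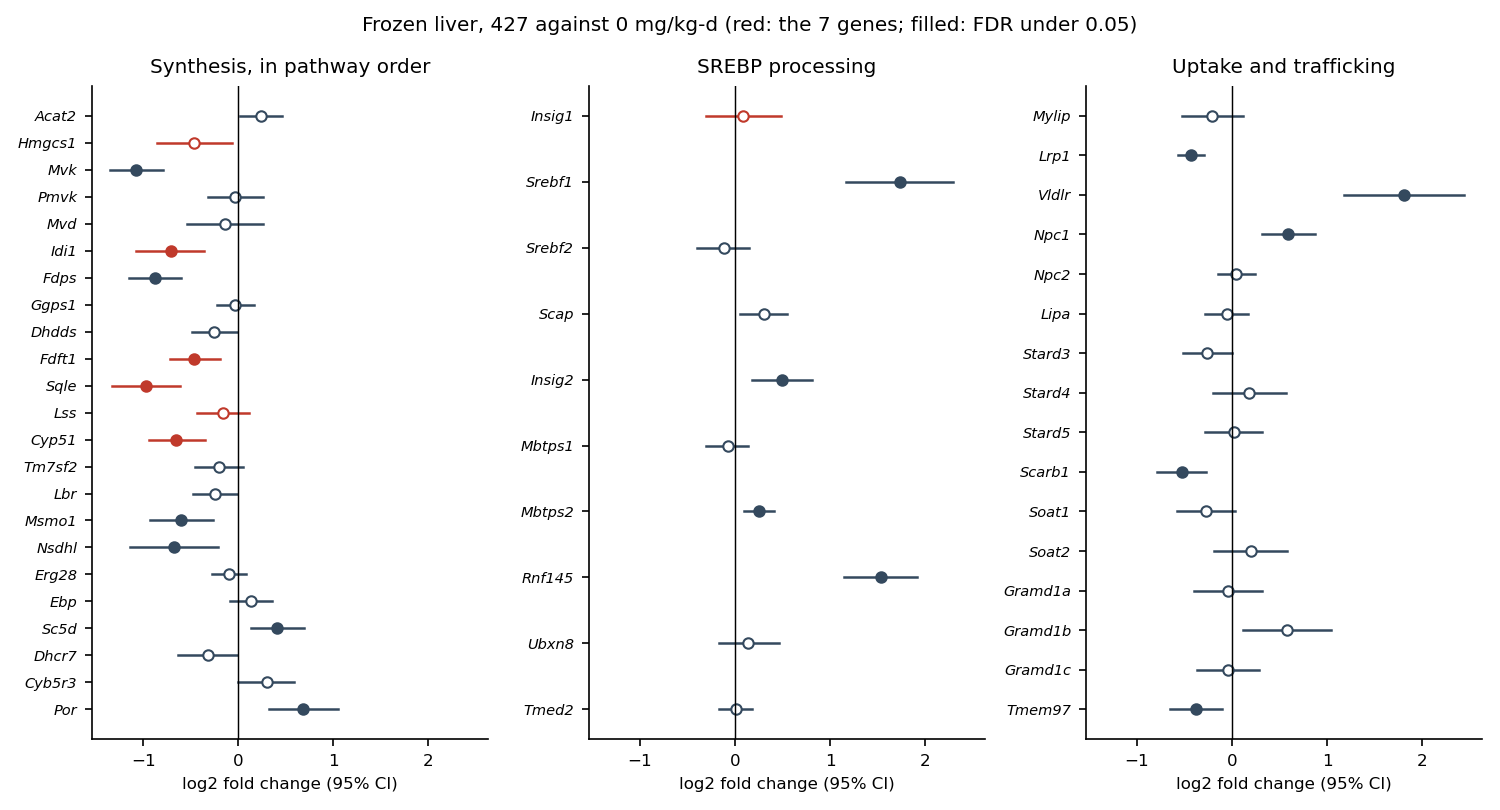
Log2 fold change with its 95% CI in FROZ liver at 427 against 0 mg/kg-d for synthesis enzymes in pathway order, SREBP processing genes, and uptake and trafficking genes, with the 7 sterol genes in red and filled points where FDR was under 0.05. Mvk (-1.07), Sqle (-0.97) and Fdps (-0.88) lie farthest below 0 and are filled, while Srebf1 (1.73), Rnf145 (1.53) and Vldlr (1.81) lie above 0.

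In FROZ most pairs of the 7 genes also varied together between mice of the same dose, but not in FFPE. With the dose mean taken out, Pearson r in FROZ ranged from -0.01 to 0.83 over 21 pairs of genes (24 animals), with a median of 0.67 and 20 pairs above 0. The highest values were 0.83 for Hmgcs1 with Idi1 and 0.79 for Fdft1 with Lss. Insig1 followed Cyp51 (0.74) and Sqle (0.73) but not Hmgcs1 (-0.01) or Idi1 (0.18). In FFPE the same 21 pairs ranged from -0.38 to 0.59, with a median of 0.06 and 12 pairs above 0. Values of a pair come from 1 library and share its depth, so they are given as descriptions, without other gene pairs beside them.

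**Figure D3:**
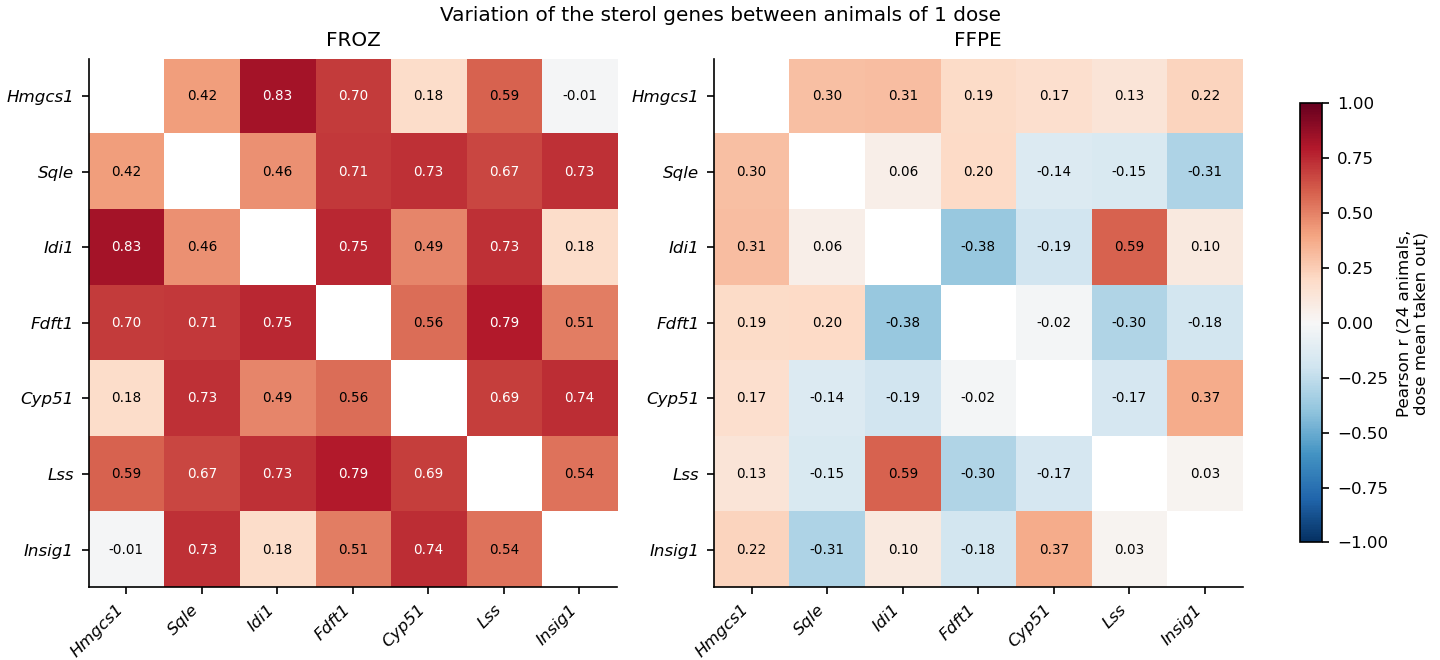
Pearson r between each pair of sterol genes over 24 animals after the dose mean was taken out, in FROZ and FFPE, with red for positive and blue for negative values. The FROZ pairs are mostly red (median 0.67) and the FFPE pairs are pale (median 0.06).

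The mean z-score of the 7 genes over the 24 FROZ libraries gave a shared profile, with a median of 0.53 in controls, -0.39 at 198, 0.56 at 313 and -0.87 at 427 mg/kg-d. Animal 49 was lowest of all at -1.35, and animal 100 was the only mouse at 427 mg/kg-d above 0, at 0.25. Of 5865 other genes that averaged 10 CPM or more, the 5 most like this profile were Msmo1 (r = 0.89), Fdps (r = 0.72), Hpx (r = 0.69), Dpy19l3 (r = 0.68) and Apcs (r = 0.68). With the dose mean taken out they were Msmo1 (r = 0.82), Mvk (r = 0.69), Fdps (r = 0.64), Utp14b (r = 0.59) and Arhgap21 (r = 0.59). In FFPE the r of Msmo1 with the profile of the 7 genes was 0.37, and 0.31 without the dose mean, and that of Fdps was 0.39 and 0.36.

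FFPE libraries of the same mice gave no called change from vehicle for any of the 7 genes at any dose by limma. The background was 0.0599% of 6673 genes at 198, 1.08% at 313 and 2.41% at 427 mg/kg-d, and only Sqle at 427 mg/kg-d had an unadjusted p under 0.05, as did 8.71% of all FFPE genes at that dose. Sqle levels were 7.01, 7.50 and 8.33 (lowest, median and highest) in controls, 7.04, 7.73 and 8.79 at 198, 6.87, 8.33 and 8.88 at 313, and 5.85, 6.43 and 7.14 at 427 mg/kg-d. Of the mice given most DCA, 4 of 6 lay below all controls, and the change was -1.04 ± 0.32 (SE, FDR = 0.0913), close in value to the -0.97 of FROZ. It was called with array weights (FDR = 0.00147), with only these 2 groups (FDR = 0.0113), and without the 4 libraries that had over 1000 genes at 0 (FDR = 0.0489), the last setting chosen after the data were seen. From 313 to 427 mg/kg-d Sqle fell by 1.62 ± 0.32 (SE, FDR = 0.0119), or 3.08-fold, where 0.255% of genes were called lower. The Sqle call for this step was lost without animal 75 (FDR = 0.0562) and without the trend in the variance prior (FDR = 0.105). Over all FFPE genes the median change was 0.29 in this step. Against vehicle it was -0.19, -0.12 and 0.18 at 198, 313 and 427 mg/kg-d.

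For the other 6 genes the FFPE standard errors at 427 mg/kg-d ran from 0.29 (Fdft1) to 1.15 (Cyp51). Hmgcs1 had a value of -0.67 ± 0.36 (SE, 95% CI -1.41 to 0.07) at 427 mg/kg-d, with all 6 mice below the control median. Fdft1 had 0.09 (95% CI -0.50 to 0.67), Lss 0.11 (95% CI -1.31 to 1.53), Idi1 0.11 (95% CI -1.72 to 1.93), Insig1 0.50 (95% CI -1.09 to 2.10) and Cyp51 0.81 (95% CI -1.54 to 3.16). Cyp51 was listed at 0 in 6 FFPE libraries (animals 5, 49, 52, 54, 74 and 76), Idi1 in that of animal 53, Lss in that of animal 73 and Insig1 in that of animal 49, all of which entered the fit as 0. The intervals of Idi1 and Cyp51 hold the FROZ changes of -0.71 and -0.65, and that of Fdft1 (-0.50 to 0.67) holds -0.46, so a fall of the FROZ size could not be told from none in these libraries. The 7 listed hepatocyte markers had a summed FFPE level of 15.32 to 15.72 in controls and 14.83 to 15.03 at 427 mg/kg-d. Of these markers 2 were called lower (Apoa1 and Fgb), as were 0.869% of all FFPE genes. Their part in the sterol values was not tested. Of the other synthesis genes, Fdps was called in FFPE at 427 mg/kg-d (-0.90 ± 0.21, SE, FDR = 0.0114), the only one of 16 described. Mvk had -1.41 ± 0.44 (SE, FDR = 0.0937) and Msmo1 0.03 ± 0.37 (SE), against -1.07 and -0.60 in FROZ. At 427 mg/kg-d 2.41% of all FFPE genes were called, and none of 6 SREBP processing or 10 uptake and trafficking genes was. Srebf1 had 1.27 ± 0.81 (SE, FDR = 0.826) there, and Vldlr, Rnf145 and Npc1 were not listed in FFPE. At 313 mg/kg-d Scarb1 was called lower (-1.26 ± 0.30, SE, FDR = 0.0239), where 0.315% of all genes were.

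**Figure D4:**
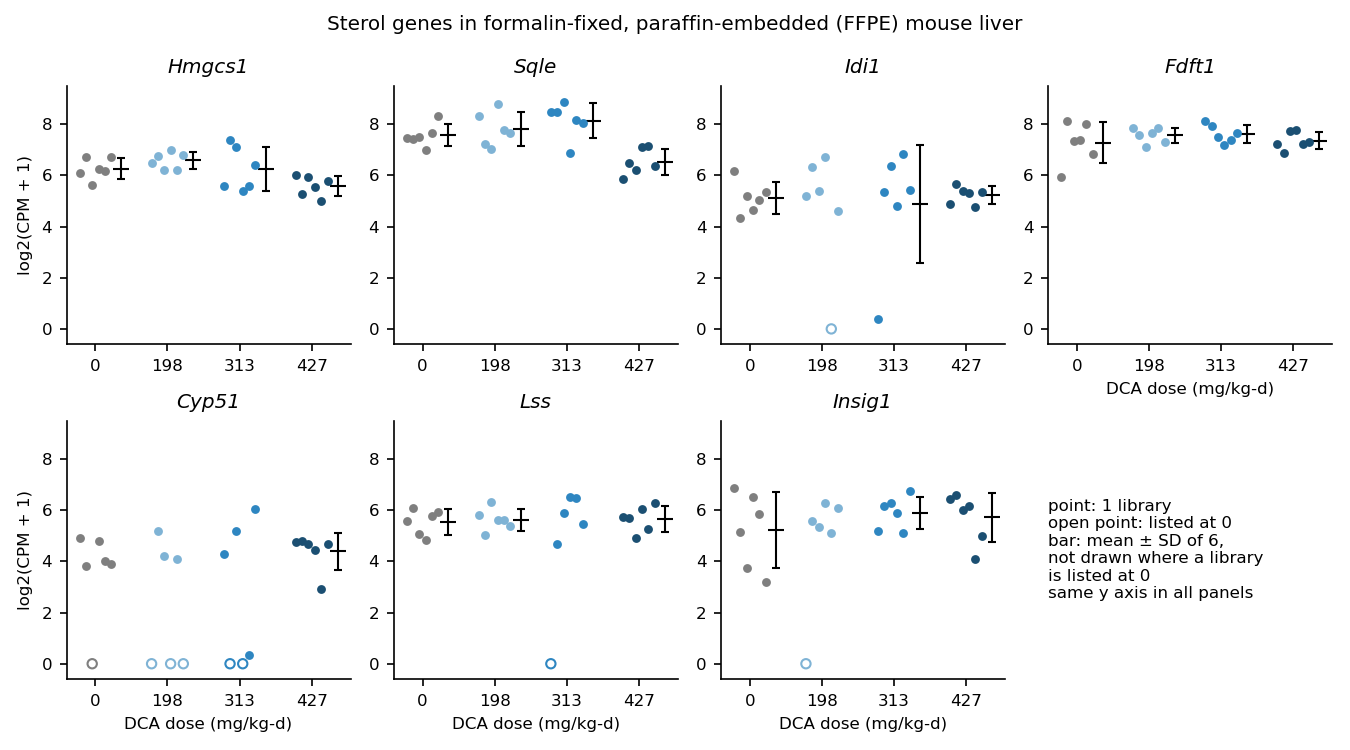
Level of each sterol gene, log2(CPM + 1), in the 24 FFPE libraries by DCA dose (mg/kg-d), with 1 point per library, open where the gene was listed at 0, and the mean ± SD of 6 where no library was at 0. Sqle is lowest at 427 mg/kg-d (5.85 to 7.14), and open points occur for Cyp51 in 6 libraries and for Idi1, Lss and Insig1 in 1 each.

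**Figure D5:**
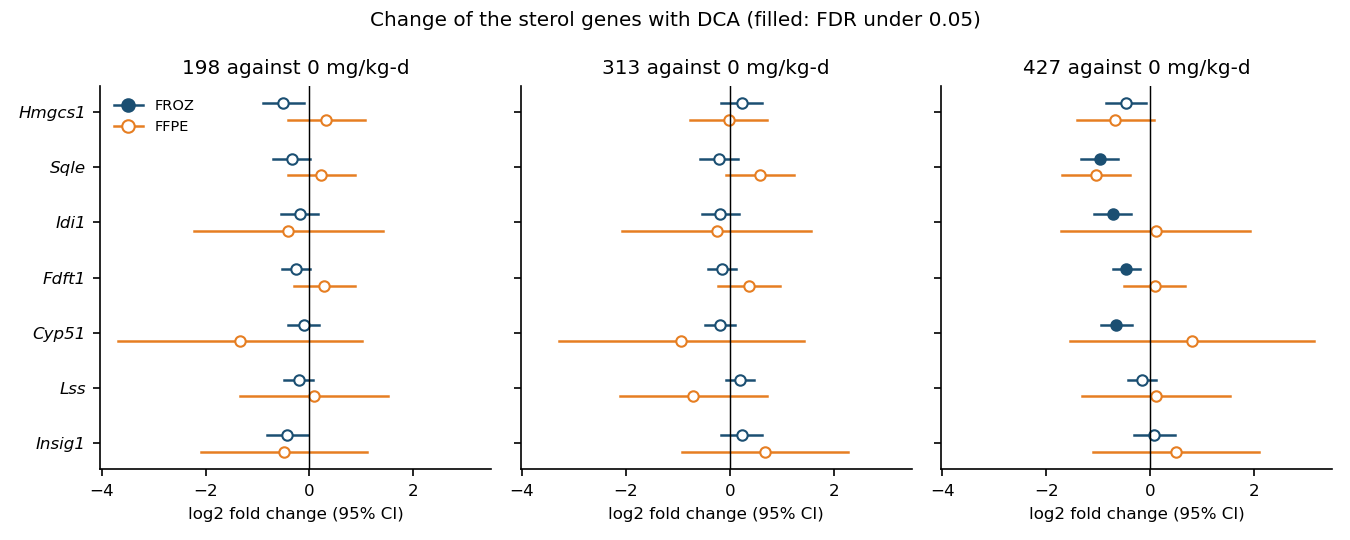
Log2 fold change of each sterol gene against vehicle with its 95% CI at 198, 313 and 427 mg/kg-d in FROZ (blue) and FFPE (orange), with filled points where FDR was under 0.05. The 4 filled points are Sqle, Idi1, Fdft1 and Cyp51 in FROZ at 427 mg/kg-d, and the FFPE intervals are widest for Cyp51.

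Of the 7 genes, 4 were called different in level between the preservations, a share near that of all genes (53.3% of 6591 in both tables). In vehicle mice FFPE was lower than FROZ of the same animal for Idi1 (-3.50 ± 0.64, SE, FDR = 7.4e-05), Hmgcs1 (-1.45 ± 0.20, FDR = 2e-06) and Fdft1 (-0.91 ± 0.22, FDR = 0.00168) in 6 of 6 mice, and higher for Sqle (1.15 ± 0.22, FDR = 0.00011) in 6 of 6. The other 3 genes were not called. The tables were scaled separately, so these differences also hold the different sets of genes in them. They also hold isolated RNA against tissue lysate and partly different liver lobes, which cannot be told apart from the preservation. The response to DCA was not called different between FFPE and FROZ for any of the 7 genes in limma on the differences within animals, with 0.0303, 0 and 0.0303% of all genes called at 198, 313 and 427 mg/kg-d. Hmgcs1 at 198 mg/kg-d (difference 0.82 ± 0.28, SE) and Sqle at 313 mg/kg-d (0.78 ± 0.31, SE) had an unadjusted p under 0.05 but FDR of 0.355 and 0.636.

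Deviations from the dose mean of the same animal were compared between FROZ and FFPE over 24 animals, with 100000 permutations of animals within dose and two-sided p-values adjusted over the 7 genes. Hmgcs1 agreed most, with Pearson r = 0.73 (permutation p = 0.0001, adjusted 0.0007) and Spearman rho = 0.75 (permutation p = 6e-05, adjusted 0.00042), and r was 0.65 without animals 8 and 75, the farthest from the median. Sqle had r = 0.56 (permutation p = 0.00986, adjusted 0.0327), rho = 0.56 (p = 0.00800, adjusted 0.0280) and r = 0.57 without animals 77 and 97. Insig1 had r = 0.51 (permutation p = 0.0140, adjusted 0.0327) but rho = 0.41 (p = 0.0511, adjusted 0.119), and r was 0.34 without animals 49 and 77, so its relation rests on those animals. Idi1 (r = 0.44, rho = 0.36), Fdft1 (r = 0.32, rho = 0.27), Cyp51 (r = 0.27, rho = 0.30) and Lss (r = 0.15, rho = 0.27) had adjusted permutation p-values of 0.0912 to 0.447 for r and 0.155 to 0.235 for rho.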

How the data were processed

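TempO-Seq values of 24 FROZ and 24 FFPE liver libraries were used as the authors deposited them, as log2(CPM + 1) in 1 table per preservation. Per the submitters' processing notes the tools were Partek and STAR 2.6 and the build was mm10. The authors trimmed and aligned the reads, counted them per gene, removed genes with few counts, and scaled the counts to CPM before the log2 transformation. Each table sums to the same CPM total in every library, so scaling followed the filter and was separate for FROZ and FFPE. Reads carry no molecular identifiers, so the value of 3 reads, the limit that a count of 0 allows, covers counting error only. Reads on listed genes were estimated from the CPM step of low values, of which 96.2 to 97.2% in FROZ and 72.2 to 93.8% in FFPE were within 0.05 of a whole multiple. Libraries were grouped by dose and preservation from the sample labels and paired by animal number. As a check of the pairing, deviations from the dose mean over 4815 genes had a median r of 0.128 within an animal and -0.0232 between animals, and 21 of 24 animals matched their own best. The mice are separate animals.

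Each table was fitted with limma 3.58.1 in R 4.3.3 over all genes and 4 doses, with a trended variance prior (limma-trend). Contrasts were of each dose with vehicle and of neighbouring doses. FFPE minus FROZ differences per animal were fitted the same way, so that the animal is the block. The slope per 100 mg/kg-d came from a separate limma fit of each table, with dose as a number. Permutations and summaries used Python 3.11.15, numpy 2.4.6 and scipy 1.17.1. The fits were tested on simulated data. Alternatives were an offset of 0.1 CPM, median-ratio scaling, only genes that averaged 10 CPM or more, a variance prior without trend, array weights, only the 2 groups compared, each animal left out, no replicate block, and, chosen after seeing the data, FFPE without its 4 libraries with over 1000 genes at 0. Named list genes were the 12 largest of 15 called in FROZ at 427 mg/kg-d plus all listed regulators. Sc5d and Tmem97 were added after their values were seen. Some genes of these lists are not reported here and are in none of the list counts. The members and lists were chosen with earlier results of these data known. RNA-Seq libraries were not analysed here.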

Additional observations from a re-analysis of the deposited data

Results flagged for a closer look

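In 56 groups of 6 libraries (7 genes, 4 doses, FROZ and FFPE), 6 values stood far from the other 5 by Dixon's ratio, all 6 in FFPE and none in FROZ. Some groups are set apart by chance at this 95% critical value. Idi1 was listed at 0 in the FFPE library of animal 53 at 198 mg/kg-d, where the other 5 lay between 4.61 and 6.72, and stood at 0.40 in that of animal 73 at 313 mg/kg-d, against 4.81 to 6.84. Lss was listed at 0 in the same library of animal 73, against 4.68 to 6.53. Cyp51 was listed at 0 in the vehicle library of animal 5, against 3.83 to 4.93, and stood at 2.93 in that of animal 101 at 427 mg/kg-d, against 4.46 to 4.79. Insig1 was listed at 0 in the library of animal 49 at 198 mg/kg-d, against 5.11 to 6.30.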

How the results depend on the processing

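Against vehicle in FROZ, the number of genes called among the 7 stayed at 0 at 198 and 313 mg/kg-d under every alternative and was 4 or 5 at 427 mg/kg-d, 5 with median-ratio scaling. From 198 to 313 mg/kg-d it fell from 3 to 1 with array weights and with only the 2 groups compared, and lay between 1 and 3 with an animal left out. From 313 to 427 mg/kg-d it fell from 2 to 1 with median-ratio scaling and without the trend in the prior, and lay between 1 and 3 with an animal left out. In FFPE at 427 mg/kg-d it rose from 0 to 1 (Sqle) with array weights, with only the 2 groups compared and without the 4 libraries with over 1000 genes at 0. From 313 to 427 mg/kg-d in FFPE it fell from 1 to 0 without the trend in the prior, and lay between 0 and 1 with an animal left out. The cause was not tested.

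Signs turned only where no call was made. Median-ratio scaling gave Insig1 -0.06 and Tmed2 -0.14 in FROZ at 427 mg/kg-d, Idi1 -0.05 from 198 to 313 mg/kg-d and Fdft1 -0.02 in FFPE at 427 mg/kg-d. Array weights gave Idi1 -0.10 from 198 to 313 mg/kg-d in FROZ. In FFPE they gave Sqle -0.11, Idi1 0.46, Fdft1 -0.03, Cyp51 0.47 and Insig1 0.16 at 198, Hmgcs1 0.12, Idi1 0.29 and Lss 0.01 at 313, Fdft1 -0.06 at 427 mg/kg-d, and Idi1 -0.04 from 313 to 427 mg/kg-d. Without the 4 FFPE libraries, Sqle had -0.22, Cyp51 0.92 and Insig1 0.12 at 198, Hmgcs1 0.11, Idi1 0.64 and Lss 0.27 at 313 mg/kg-d, and Idi1 -0.53 and Lss -0.16 from 313 to 427 mg/kg-d.

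With an animal left out, ranges that crossed 0 were -0.02 to 0.05 for Tmed2 in FROZ at 427 mg/kg-d, and -0.09 to 0.09 for Idi1 and -0.16 to 0.03 for Cyp51 from 198 to 313 mg/kg-d. In FFPE they were -0.81 to 0.54 for Idi1, -0.05 to 0.20 for Lss and -0.89 to 0.46 for Insig1 at 198, -0.25 to 0.14 for Hmgcs1, -0.65 to 0.64 for Idi1 and -1.03 to 0.27 for Lss at 313, -0.05 to 0.32 for Idi1, -0.18 to 0.26 for Fdft1 and -0.03 to 0.26 for Lss at 427 mg/kg-d, and -0.53 to 0.75 for Idi1, -0.16 to 1.14 for Lss and -0.35 to 0.15 for Insig1 from 313 to 427 mg/kg-d.

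With the animal as replicate block, and with no replicate block, 0 of the 7 genes differed in response between FFPE and FROZ at each dose. Over all genes the paired fit called 2, 0 and 2 at 198, 313 and 427 mg/kg-d, and the fit with no replicate block 1, 1 and 2.

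Over all genes in FROZ at 427 mg/kg-d, 826 of 3391 calls were lower, and 1424 of 2847 with median-ratio scaling. The same counts were 693 of 3010 and 1223 of 2381 at 313 mg/kg-d, 50 of 176 and 95 of 124 at 198 mg/kg-d, and 411 of 1319 and 583 of 1215 from 198 to 313 mg/kg-d. In FFPE they were 58 of 161 and 79 of 165 at 427 mg/kg-d, and 17 of 25 and 19 of 23 from 313 to 427 mg/kg-d. With an animal left out, between 51 and 215 genes were called in FROZ at 198 mg/kg-d and between 187 and 387 from 313 to 427 mg/kg-d, and in FFPE between 2 and 40 at 198, between 49 and 126 at 313 and between 10 and 54 from 313 to 427 mg/kg-d. At 198 mg/kg-d, 176 genes were called, and 299 with the filter of 10 CPM, 100 without the trend in the prior and 88 with only the 2 groups. In FFPE at 427 mg/kg-d, 161 genes were called, and 524 with array weights, 427 with only the 2 groups and 94 without the trend. Between the FFPE doses of 313 and 427 mg/kg-d 25 genes were called, and 47 with array weights and 5 without the trend, and at 313 mg/kg-d 72, and 35 without the trend. At 198 mg/kg-d in FFPE 4 were called, and 7 with the filter of 10 CPM and 1 without the 4 libraries.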
